A study of Saccharomyces cerevisiae with 2 samples.

Results

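The 34 nuclear genes described here encode aminoacyl-tRNA synthetases of the budding yeast Saccharomyces cerevisiae, 34 of the 6207 features of the array. They were taken by systematic name and fall into 21 cytosolic enzymes, from VAS1 to CRS1, and 13 mitochondrial ones, from MSF1 to DIA4. They were selected by enzyme family, with the log2 ratios of both arrays already known, so the ratios below are a description and no test of the members is made. Each synthetase joins 1 amino acid to its matching tRNA, the step that sets the meaning of the genetic code. Cytosol and mitochondria of yeast translate separately, and most amino acids have a nuclear gene for each compartment. VAS1 (YGR094W), ALA1 (YOR335C), GRS1 (YBR121C), HTS1 (YPR033C) and CRS1 (YNL247W) are known to supply both compartments from 1 gene each, and these 5 stand among the 21. Mitochondria have no glutaminyl-tRNA synthetase of their own and make that charged tRNA by amidation.

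RNA came from a mid2 mutant of strain BY4741, treated with Congo Red in 1 part of a divided culture and left untreated in the other. Both parts thus lack Mid2, a sensor of cell wall stress in the plasma membrane, and both carry the background's lesions in HIS3, LEU2, MET15 and URA3. The treated part received 30 µg/ml Congo Red, a dye that binds chitin and glucan of the wall, and was collected at 4 h. All cells grew at 24 °C in rich medium. Congo Red RNA was in Cy3 for array 1 and in Cy5 for array 2, and untreated RNA in the other dye. The labels describe a pair of cultures with a dye swap each, and they do not say whether the 2 arrays used here share a culture. The spread between arrays may therefore be technical, and no wild-type array was used here. BY4741 is of mating type a: 5 of 6 a-cell marker genes had a value on at least 1 array. Of 4 alpha-cell marker genes, 1 had a value, MF(ALPHA)2, so that a deposited value alone does not show that a transcript was present.

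Each deposited value is a log2 ratio of the channels of 1 array. Which channel is on top is not given. Although the dyes were swapped, the arrays correlated positively over the 2738 features with a value on both (Pearson r = 0.48, Spearman rho = 0.34, across genes, which are no independent replicates). Such a correlation fits ratios already turned to treated over untreated, and a positive ratio is taken to mean more transcript with Congo Red, a likely but unsettled reading. Ratios turned the other way would correlate equally, with every sign below opposite. For ratios never turned, a dye bias per gene could give the same correlation, and the treatment would then lie in the difference between the arrays. That reading is given beside the main results for Cy5 over Cy3, with the sign of array 1 turned, and for Cy3 over Cy5 each of its signs would be opposite. The median of all features was −0.27 on array 1, −0.18 on array 2 and −0.24 in the mean, so a gene near these values lies in the middle of the arrays. In RNA of a whole culture, a large change in some cells and a small change in all of them cannot be told apart.

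The 2 classes differed first in how many genes had a value at all. Of the cytosolic genes, 19 of 21 had a value on both arrays and 2 on array 2 only. Of the mitochondrial genes, 1 of 13 had a value on both arrays, 2 had a value on 1 array, and 10 had none. These shares on both arrays were 90.5% of the cytosolic and 7.69% of the mitochondrial genes, against 44.1% of all features (2738 of 6207). The genes with no value were MSF1 (YPR047W), MSD1 (YPL104W), MSE1 (YOL033W), MSR1 (YHR091C), MSY1 (YPL097W), MSM1 (YGR171C), MST1 (YKL194C), ISM1 (YPL040C), NAM2 (YLR382C) and DIA4 (YHR011W), for phenylalanine, aspartate, glutamate, arginine, tyrosine, methionine, threonine, isoleucine, leucine and serine. Why a cell of the table is empty is not given in the sources used here, and an empty cell is no measure of a low or unchanged transcript.

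Mitochondrial ribosomal protein genes had values more often than the mitochondrial synthetases. Of 65 mitochondrial ribosomal protein features, taken by gene symbol, 42 had a value on both arrays (64.6%). Of 37 mitochondrial translation factors and tRNA enzymes, 8 did (21.6%). Among these, PET112 and HER2, subunits of the amidating enzyme that replaces the missing glutaminyl-tRNA synthetase, had no value, while the third subunit gene GTF1 had −0.62 on array 1 and −0.49 on array 2. In the cytosol, 11 of 12 elongation factor features had a value on both arrays, and 27 of 66 tRNA processing and modification genes (40.9%). The median coding length was 2004 bases for cytosolic and 1611 bases for mitochondrial synthetases. It was 699 bases for the 67 mitochondrial ribosomal protein genes listed. Among the 5654 features matched to a gene, values on both arrays were present for 33.5% of the 1414 longest (1911 to 14733 bases). The median of the cytosolic synthetases falls there, and 90.5% of that class had such values. The share was 36.9% for the 1408 features of 1248 to 1908 bases, where the mitochondrial synthetase median falls, against 7.69% of that class. Values were present for 62.6% of the 1419 shortest (78 to 771 bases), near the share of the mitochondrial ribosomal protein features. The part of gene length in the shares of the classes and gene groups was not tested.

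**Figure D1:**
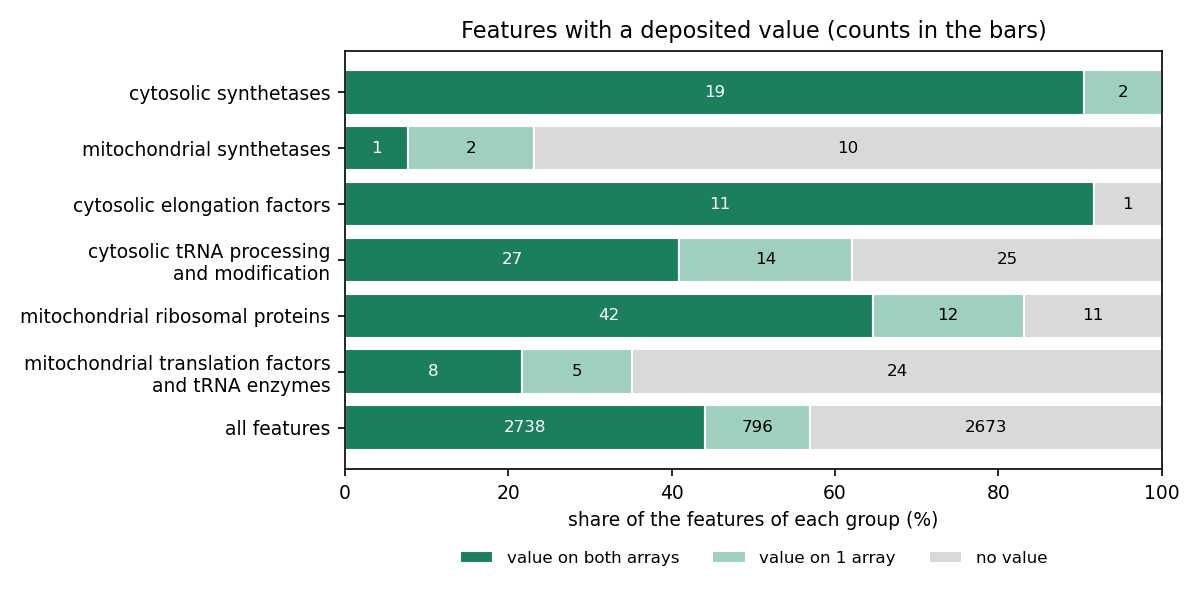
Share of features (horizontal axis, %) with a deposited ratio on both arrays, on 1 array or on none, for the synthetase classes, related gene groups and all features; numbers in the bars are counts of features. The cytosolic synthetases have values on both arrays for 19 of 21 genes and the mitochondrial ones for 1 of 13, against 2738 of 6207 features in all.

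All 19 cytosolic synthetases with a value on both arrays had a positive mean, and 15 of them were positive on each array. Over all features, 27.1% had a positive mean and 15.9% were positive on each array. The other 4, SES1, FRS1, WRS1 and YDR341C, were positive on array 1 and negative on array 2, and no cytosolic member was negative on both. In 17 of the 19 each value lay above the median of its array, the exceptions being WRS1 and YDR341C, against 29.3% of all features. The median cytosolic log2 ratio was 0.77 in the mean of the arrays, a ratio of 1.71, with 1.18 on array 1 and 0.39 on array 2. Relative to the median of all features this was 1.01 in the mean, 1.45 on array 1 and 0.57 on array 2. The control feature 3XSSC, left out of all counts, was positive on each array too, with 0.48 on array 1 and 0.51 on array 2. The other control feature, Arabidopsis, also left out, had −2.52 on array 1 and 0.53 on array 2. On array 2 both control features thus lay above the cytosolic median. On array 1, 3XSSC lay above GRS1, GLN4, FRS2, YDR341C and CRS1. A small positive ratio on either array need therefore not be signal. The values on array 1 were the higher ones in 13 of the 19. If the ratios were never turned and are Cy5 over Cy3, these 13 would be negative and 6 positive, with a median of −0.33, against 0.060 for all features, and for Cy3 over Cy5 each sign would be opposite.

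In the fit over the whole table, limma called 0 of 2738 features, hence no member, at a Benjamini-Hochberg adjusted p under 0.05 (0% of features, smallest adjusted p = 0.123). At an unadjusted p under 0.05 it gave 9 of the 20 members, all cytosolic and positive, against 371 of 2738 features (13.6%), of which 172 were positive (6.28% of all). With 2 arrays these p-values draw on a spread pooled over features, so they do not show that the arrays agree on a gene. KRS1 is among the 9 with a mean of 1.93 and an SD of 2.04. Beside the test stood limits of size: the mean had to reach 2-fold, and each array 1.5-fold in that direction. They took 6 cytosolic members, VAS1, DED81, DPS1, MES1, YHR020W and GUS1, all positive, where 113 of 2738 features passed on the positive side (4.13%). They took 0 on the negative side, where 77 features passed (2.81%). Centring each array on its median left 8 positive and 0 negative cytosolic members, among 162 positive and 35 negative features. Scaling the centred arrays left 9 and 0, among 167 positive and 40 negative features. Taken alone, array 1 had 12 of the 19 at 2-fold or more on the positive side (8.04% of features) and array 2 had 5 (3.91%). With ratios never turned, 0 members would pass, and 11 features in all. Because the members were chosen with these ratios known, nothing is read from the shares.

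**Figure D2:**
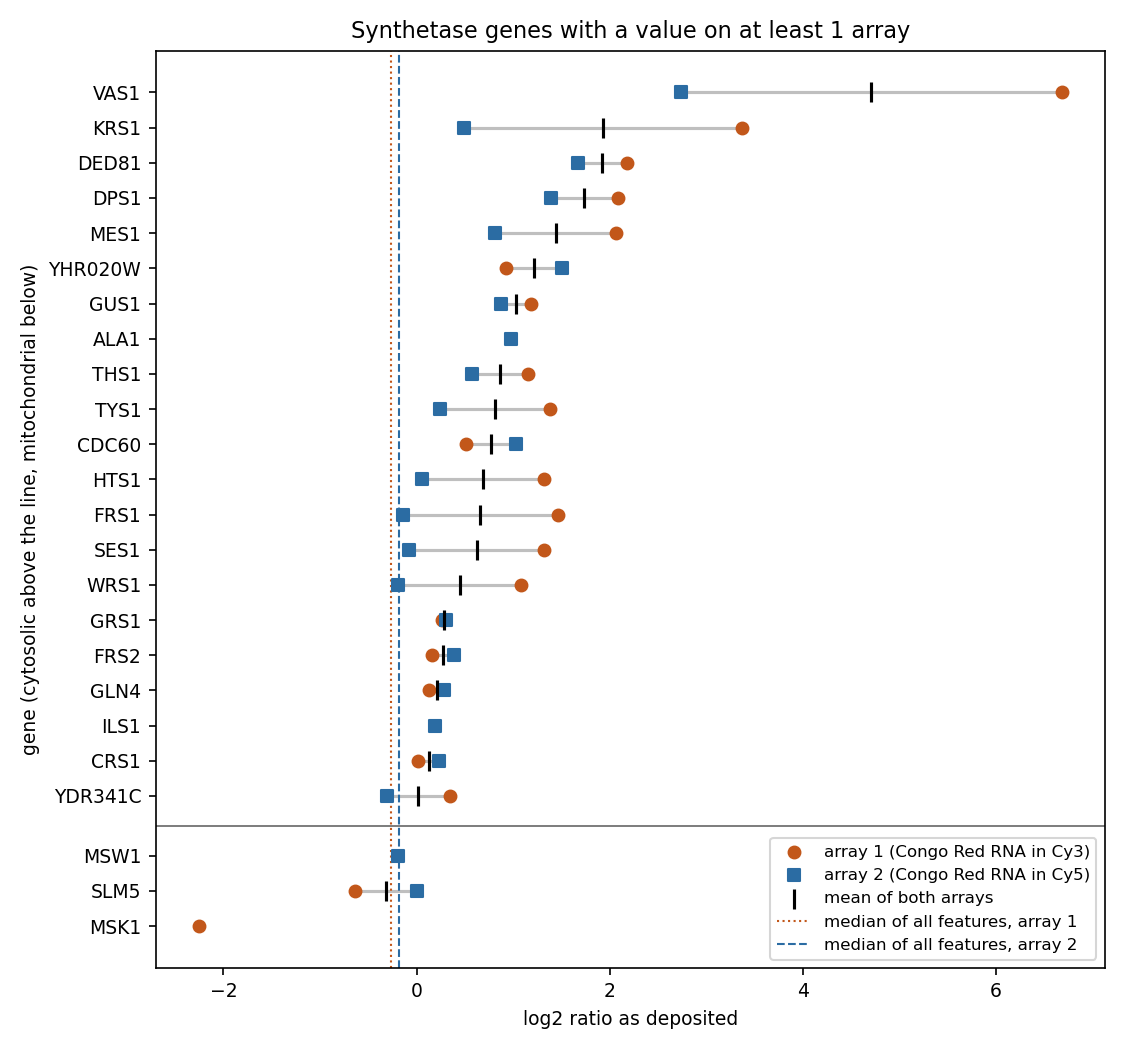
Log2 ratios as deposited (horizontal axis) of the 24 synthetase genes with a value on at least 1 array, cytosolic above the line and mitochondrial below, ordered by their mean value; circles are array 1, squares array 2, black ticks the mean, and vertical lines the medians of all features (−0.27 on array 1 and −0.18 on array 2). VAS1 stands apart at the top, and MSK1, with array 1 only, lies lowest.

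VAS1, whose product charges valine in both cytosol and mitochondria, had by far the highest member ratios. Its log2 ratio was 6.68 on array 1, a ratio of 102, and 2.73 on array 2, a ratio of 6.64. The mean was 4.70 ± 2.79 (SD, n = 2), first of all 2738 features as deposited. With ratios never turned, taken as Cy5 over Cy3, the mean was −1.97, on the opposite side. On array 1 alone it ranked first and on array 2 sixth. Both arrays thus placed VAS1 near the top of the table, while its 2 values lay 3.95 apart on the log2 scale.

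DED81 (YHR019C) and YHR020W, the asparaginyl- and prolyl-tRNA synthetase genes, are next to each other on chromosome VIII and, by the strand letters of their names, are transcribed apart. DED81 had 2.17 on array 1 and 1.67 on array 2, a mean of 1.92 ± 0.35 (SD, n = 2). YHR020W had 0.92 on array 1 and 1.51 on array 2, a mean of 1.22 ± 0.42 (SD, n = 2). Both were past the limits of size, and they were the only neighbours among the 34 genes in the gene table. DPS1 (YLL018C), the aspartyl-tRNA synthetase gene, was similar to DED81 with 2.09 on array 1 and 1.39 on array 2, a mean of 1.74 ± 0.49 (SD, n = 2). DED81, DPS1 and YHR020W differed from each other by 0.19 to 0.71 in the mean, beside SDs between 0.35 and 0.49.

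MES1 (YGR264C) and GUS1 (YGL245W) encode the methionyl- and glutamyl-tRNA synthetases, which bind the cofactor Arc1 in a complex that helps them take up tRNA. MES1 had 2.06 on array 1 and 0.81 on array 2, a mean of 1.44 ± 0.88 (SD, n = 2). GUS1 had 1.18 on array 1 and 0.87 on array 2, a mean of 1.03 ± 0.22 (SD, n = 2), just inside the limits of size. ARC1 itself had 0.22 on array 1 and −0.39 on array 2, below both enzymes on each array (mean −0.084 ± 0.44, SD, n = 2).

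KRS1 (YDR037W), the lysyl-tRNA synthetase gene, showed the widest gap between arrays after VAS1. It had 3.37 on array 1, rank 14, and 0.49 on array 2, rank 287, with a mean of 1.93 ± 2.04 (SD, n = 2). Its mean was close to that of DED81, but on array 2 it did not reach 1.5-fold and so stayed outside the limits of size.

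Next in order came genes just short of 2-fold in the mean. THS1 (YIL078W), for threonine, had 1.15 on array 1 and 0.57 on array 2. TYS1 (YGR185C), for tyrosine, had 1.38 on array 1 and 0.24 on array 2. CDC60 (YPL160W), for leucine, had 0.51 on array 1 and 1.03 on array 2, so that array 2 was the higher one here. Their means of 0.86, 0.81 and 0.77 differed by less than any of their SDs (0.41, 0.81 and 0.37).

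A further set was high on array 1 and near 0 on array 2. HTS1, the histidyl-tRNA synthetase gene of both compartments, had 1.32 on array 1 and 0.059 on array 2. SES1 (YDR023W), for serine, had 1.32 on array 1 and −0.077 on array 2 (mean 0.62 ± 0.99, SD, n = 2). WRS1 (YOL097C), for tryptophan, had 1.09 on array 1 and −0.19 on array 2 (mean 0.45 ± 0.90, SD, n = 2). In each of these genes the SD exceeded the mean, and on array 2 WRS1 lay near the median of all features.

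FRS1 (YLR060W) and FRS2 (YFL022C) encode the 2 kinds of subunit of the cytosolic phenylalanyl-tRNA synthetase. FRS1, the gene of the beta subunit, had 1.46 on array 1 and −0.14 on array 2 (mean 0.66 ± 1.14, SD, n = 2). FRS2, the gene of the alpha subunit, had 0.16 on array 1 and 0.39 on array 2 (mean 0.27 ± 0.16, SD, n = 2). The subunit genes therefore stood in opposite order on the arrays.

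Among the lowest cytosolic members, GRS1, GLN4 and CRS1 lay close to 0 with little spread. GRS1, for glycine in both compartments, had 0.26 on array 1 and 0.30 on array 2, the narrowest gap of the 19. GLN4 (YOR168W), for glutamine, had 0.13 on array 1 and 0.28 on array 2 (mean 0.21 ± 0.11, SD, n = 2). CRS1, for cysteine, had 0.015 on array 1 and 0.23 on array 2 (mean 0.12 ± 0.15, SD, n = 2). These genes were still above the median of all features on each array, but below the control feature 3XSSC on each. YDR341C, for arginine, a paralogue of MSR1, was the lowest with 0.34 on array 1 and −0.31 on array 2, a mean of 0.016 ± 0.46 (SD, n = 2), whose sign quantile normalization turned to −0.044. ALA1, for alanine, and ILS1 (YBL076C), for isoleucine, had a value on array 2 only, 0.97 and 0.19.

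**Figure D3:**
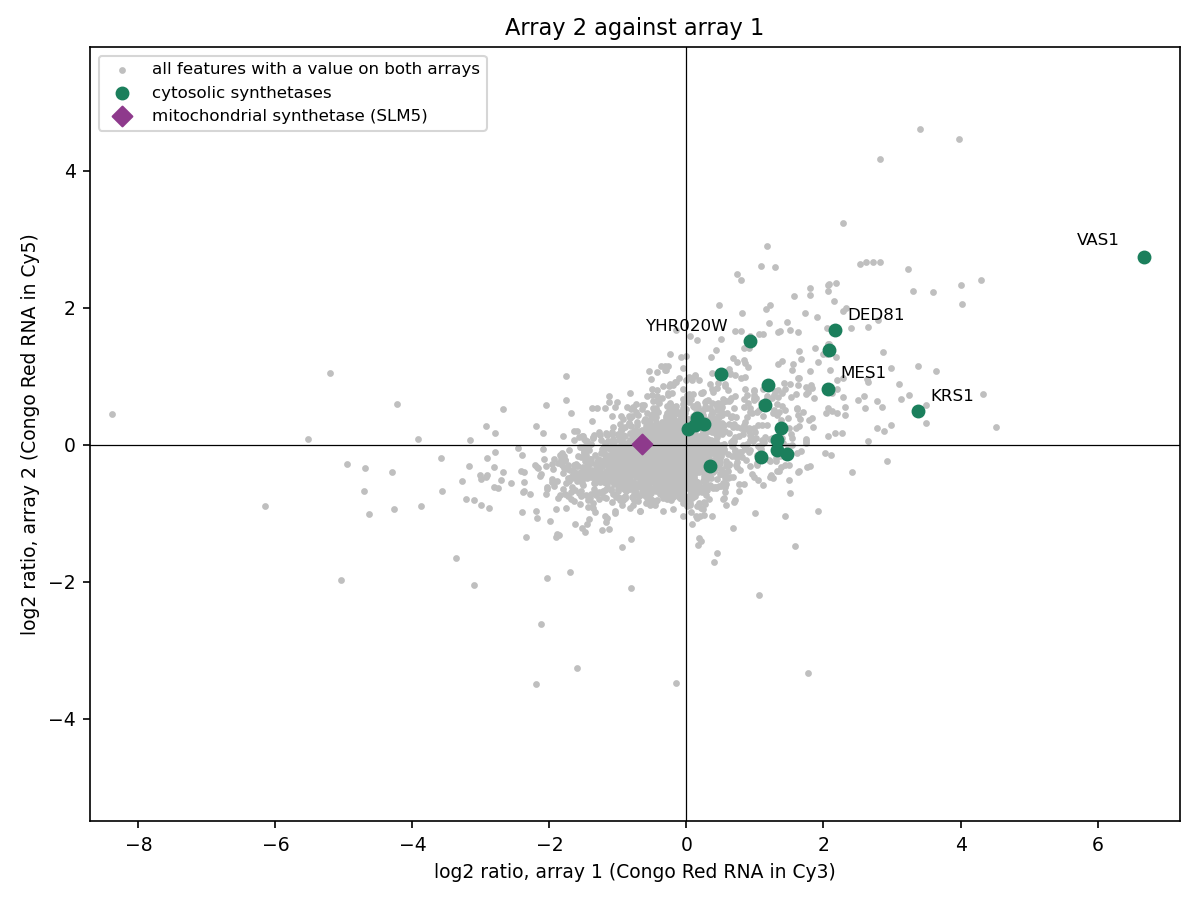
Log2 ratio on array 2 (vertical axis) against array 1 (horizontal axis) for the 2738 features measured on each array, with the 19 cytosolic synthetases as green circles and SLM5 as a purple diamond. All green points lie right of 0 on array 1, and 15 of 19 also lie above 0 on array 2.

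Across the 19 cytosolic genes the arrays correlated with r = 0.68 and rho = 0.38. Without VAS1, r was 0.32 and rho 0.27 over 18 genes, so the higher r rested on that gene. All these points share the same arrays. Structural class, which divides synthetases by the fold of their catalytic domain, was compared as well. The median was 0.77 for the 9 measured cytosolic enzymes of class I and 0.77 for the 10 of class II. Class I had 1.09 on array 1 and 0.28 on array 2, and class II 1.32 on array 1 and 0.44 on array 2, so that the classes lay closer together than the arrays. The 4 measured genes listed above as supplying both compartments had a median of 0.48, against 0.81 for the other 15. These 4 ranged from CRS1 at 0.12 to VAS1 at 4.70, a wider range than the distance between the medians.

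Among the mitochondrial synthetases, SLM5 (YCR024C), for asparagine, was the only gene with a value on both arrays. It had −0.64 on array 1 and 0.0055 on array 2, a mean of −0.32 ± 0.46 (SD, n = 2). This lay 0.077 below the median of all features, and 1664th of 2738. MSK1 (YNL073W), for lysine, had −2.25 on array 1 only, a ratio of 0.210. The control feature Arabidopsis had −2.52 on that array, so a value of this size there need not be signal. MSW1 (YDR268W), for tryptophan, had −0.19 on array 2 only, near the median of that array.

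The difference of the class medians, cytosolic minus mitochondrial, was 1.09, from 0.77 over 19 cytosolic genes and −0.32 for SLM5 alone. It was 1.83 on array 1 and 0.38 on array 2 over the same genes. With the ratios read as never turned it was −0.65 for Cy5 over Cy3, with the opposite sign for Cy3 over Cy5. With 2 arrays an exact sign-flip permutation test cannot give a two-sided p below 0.5, and a single mitochondrial gene does not stand for its class, so no test was made. Partner enzymes for the same amino acid could be compared within an array in 3 cases. DED81 lay above SLM5 by 2.81 on array 1 and 1.67 on array 2. KRS1 lay above MSK1 by 5.63 on array 1, while WRS1 and MSW1 differed by 0.0021 on array 2. The cytosolic partner was thus higher for asparagine on both arrays, a difference that rested on 1 array for lysine, and did not appear for tryptophan.

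Genes around tRNA charging had a median of −0.32 over the 7 measured of 12 listed. GRS2, a paralogue of GRS1, had −1.28 on array 2 only, and AIM10, whose product resembles prolyl-tRNA synthetases, had −1.65 on array 2 only. GCN4, the transcription factor of the response to amino acid shortage, had −0.30 on array 1 and −0.34 on array 2, near the median of all features on array 1. GCN2, the kinase that senses uncharged tRNA, had no value. GCN1, which acts with that kinase, had −1.52 on array 1 and 0.12 on array 2. The tRNA exporter gene LOS1 had −0.95 on array 1 and −0.15 on array 2, and CEX1, a cytosolic factor of the same route, −1.07 on array 1 and −0.067 on array 2. The 2 highest of the list, TEF1 and TEF2, passed the size limits with positive ratios and are described with the elongation factors, to which they also belong, while the other 5 measured genes were not.

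The 27 measured genes of tRNA processing and modification had a median of −0.29, with 0 past the limits of size in either direction. TRM1, a tRNA methyltransferase gene, was highest with 0.37 on array 1 and 1.05 on array 2, followed by the pseudouridine synthase gene DEG1 with −0.23 on array 1 and 1.33 on array 2. TAD3, of a tRNA deaminase, was lowest with −1.62 on array 1 and −0.46 on array 2, next to PUS4, a pseudouridine synthase gene, with −0.94 on array 1 and −0.88 on array 2. Mitochondrial ribosomal protein genes had a median of −0.31 over 42 features, of which 33 were negative on both arrays and 0 past the limits of size. They ranged from MRPL23 at −1.04 and MRPL33 at −0.97 to MRP51 at −0.024 and MRPL35 at 0.065. The 8 measured mitochondrial translation factors had a median of −0.28. CBP1, which protects a mitochondrial mRNA, was past the limits on the negative side with −1.15 on array 1 and −1.06 on array 2. MSS51, a translational activator, had −5.20 on array 1 and 1.05 on array 2, and CBP6 and MRF1 were highest at a mean of 0.040 each. The position of SLM5 thus lay within the range of the other measured genes of mitochondrial translation.

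Cytosolic elongation factors were, as deposited, on the same side as the cytosolic synthetases and further out. Their median over 11 features was 1.27, with 1.86 on array 1 and 0.68 on array 2, and 6 were past the limits of size, all positive. With ratios never turned, taken as Cy5 over Cy3, their median was −0.083, nearer to 0 than the −0.33 of the cytosolic synthetases, and 0 of them passed the limits. EFT2 and EFT1, near-identical genes of elongation factor eEF2 whose features may not tell them apart, had means of 4.01 ± 0.85 and 3.49 ± 0.94 (SD, n = 2). YEF3, the fungal elongation factor gene, had 2.30 ± 0.69 (SD, n = 2). The paralogues TEF1 and TEF2, for the factor that carries charged tRNA to the ribosome, had 3.25 and 2.29 on array 1 and 0.72 and 0.70 on array 2, and TEF4 had 1.27 ± 0.83 (SD, n = 2). Whether the features of EFT1 and EFT2, or those of TEF1 and TEF2, can be separated was not tested. The 6 past the limits, and the median, may therefore rest on fewer separate measurements. ANB1 and NEW1 were lowest at −0.016 and −0.29. Amino acid synthesis genes lay nearer to the median of all features, with a median of 0.10 over 38 genes and 2 past the limits of size, both positive. These were ILV5, which makes precursors of valine and isoleucine, with 4.01 on array 1 and 2.33 on array 2, and ASN2, an asparagine synthetase gene, with 3.31 on array 1 and 2.24 on array 2. The lowest were SER3 at −0.63 and GLT1 at −0.45. The 38 include HIS3 and LEU2, which carry lesions in this strain, at −0.27 and −0.096 in the mean. Ratios of these genes are no measure of an intact gene.

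**Figure D4:**
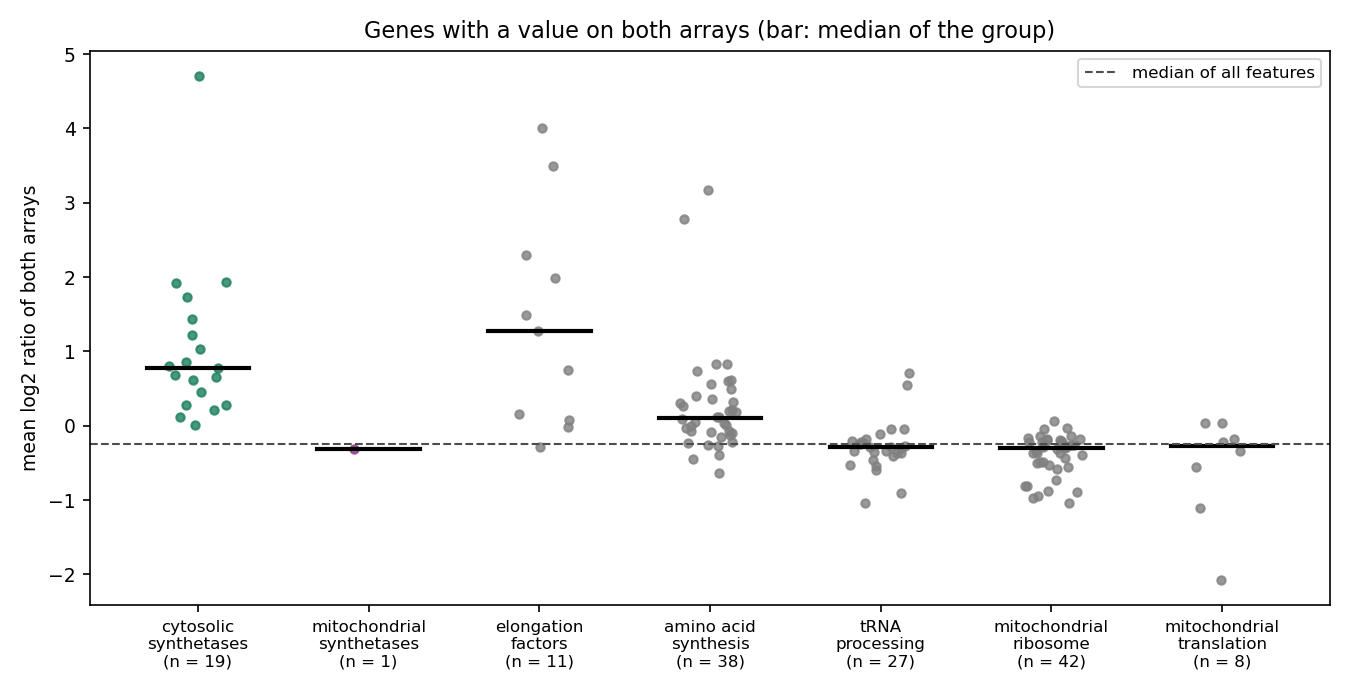
Mean log2 ratio of both arrays (vertical axis) for each gene with a value on both, by group, with the group median as a bar and the median of all features (−0.24) as a dashed line. The cytosolic synthetases all lie above 0 with a median of 0.77 and the elongation factors have a median of 1.27, while SLM5 and the mitochondrial groups have medians between −0.32 and −0.28.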

How the data were processed

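The deposited table holds 1 log2 ratio per feature and array. The base follows from the numbers themselves: all 2834 values of array 1 and 3442 of array 2, controls included, turn into ratios of 4 decimals when taken as log2 (relative tolerance 3e-09), and 9 and 7 do when taken as log10. For the authors' scanner, channel order, normalization and filters, the labels give nothing, and no intensities were used. The control features (2) were left out and ratios used as deposited. Names came from a gene table of assembly R64 (5654 features matched, 553 not), used for names, order and lengths only.

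Features with a value on both arrays were fitted with limma 3.58.1 in R 4.3.3 (mean against 0, two-sided, Benjamini-Hochberg over 2738 features, threshold 0.05). A run on simulated ratios required only that planted mean ratios came back. Its noise was smaller than the spread between these arrays, so it does not show how many changed features would be called here. Members and lists were chosen with earlier results of these data known. All 34 members were named. Of other lists the 2 highest and lowest means, genes past the limits of size and 5 fixed genes were named. A few others, among them HIS3 and LEU2, were named beyond this rule. ARG5,6 was not matched and stayed out of its list. Alternatives were other scalings, a turned sign, other limits, and each array left out. Figures used matplotlib 3.10.9.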

Additional observations from a re-analysis of the deposited data

How the results depend on the processing

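Limma called 0 features under each alternative run except the turned sign of array 1, where it called 3, with 2 members at an unadjusted p under 0.05. That setting reads the ratios as Cy5 over Cy3, never turned. It left 0 cytosolic members past the limits of size, with 4 features positive and 7 negative, and reversed the cytosolic median to −0.33, the mitochondrial median to 0.32, their difference to −0.65 and the partner difference to −0.57. The 6 cytosolic members past the limits became 3 under stricter limits (3-fold in the mean and 2-fold on each array) and ranged from 5 without array 1 to 12 without array 2. Cytosolic members on the negative side were 0 under every alternative. Without array 2, or with features of either array, MSK1 made 1 negative mitochondrial member. All features on the positive side numbered 113 before and 51 under the stricter limits, 194 under the looser ones (1.5-fold in the mean), and 116 to 220 with 1 array left out. On the negative side 77 became 35 by centring, 40 by scaling, 290 with features of either array, 14 and 327 under stricter and looser limits, and 204 to 414 with 1 array left out. With 1 array left out, over features valued on the other, the cytosolic median ranged from 0.39 to 1.18, the mitochondrial one from −1.45 to −0.092, their difference from 0.48 to 2.63 and the partner difference from 0.83 to 4.22. Here fewer arrays bring in MSK1 or MSW1. Centring, scaling, quantile normalization and leaving out the genes of both compartments kept the sign of both medians and of their difference. The cause of the other changes was not tested. No paired analysis was possible because there is 1 group. With 1 array left there is no test. Promoter motifs, protein motifs and partner identity were not analysed here. The number of arrays and the unknown signal over background limit every value.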
